A study of Mus musculus with 24 samples.

Results

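Eomes, Nkg7, Ncr1, Xcl1, Il12rb2 and Cd27 are 6 genes of natural killer (NK) cells and related cytotoxic lymphocytes, here measured in libraries labelled as memory B cells. They are 6 of the 18470 gene rows of the count table and were chosen by symbol, leaving out the killer cell lectin-like receptors. They had come to attention through their level in WT circulating libraries against WT lung libraries, so that contrast chose them and is given below as values with no test. That contrast did not use the SCAP cKO libraries, and differences were tested in them. Earlier results of these data were nevertheless known when members and tests were chosen. All 6 genes were among the 6779 that passed the filter on low counts, which they passed through the circulating groups, where their counts were high.

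Mice received house dust mite extract intranasally to set up airway allergy and the same allergen again 6 weeks later, as a recall. Class-switched memory B cells (csMBC in the labels) were sorted into a circulating population and lung populations that were CCR6+CD69+ or CCR6-CD69-, and sequenced in bulk. The 6 groups of 4 libraries are these 3 populations from WT mice (SCAP +/+ hCD20-TamCre) and from SCAP cKO mice (SCAP fl/fl hCD20-TamCre), so both genotypes carry the hCD20-TamCre allele, a tamoxifen-dependent Cre driven from human CD20 sequences. SCAP, the escort protein of the sterol-regulated SREBP transcription factors, was deleted before the recall. Every label gives lung B cells as source and tissue, even for circulating samples, and none says whether replicates were separate animals. P-values therefore measure only the spread between these samples, which may be technical. Each group has 2 libraries in batch 1 (replicates 1 and 2) and 2 in batch 2 (replicates 3 and 4), as the labels name them.

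NK cells kill infected or transformed cells by releasing cytotoxic granules and secrete cytokines and chemokines when activating receptors or IL-12 reach them. Eomes is the T-box transcription factor of mature conventional NK cells and of some CD8 T cells. Nkg7 is a membrane protein of cytotoxic granules. Ncr1 encodes NKp46, an activating receptor used to identify mouse NK cells, and Il12rb2 the IL-12 receptor chain that signals through STAT4. Cd27 is a TNF receptor family member of T cells, NK cell subsets and some B cells, with CD70 as its ligand. Xcl1 is a chemokine of NK and CD8 T cells that attracts dendritic cells bearing XCR1.

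The sequences just upstream of Nkg7, Ncr1 and Xcl1 are shown because they hold matches to motifs of factor families known from cytotoxic lymphocytes. Each is the 250 bases before the annotated start in RefSeq's GRCm38.p6, 5′ to 3′ on the gene's strand, with the T-box core GGTGTGA and the RUNX motif TGTGGT on either strand in capitals. Nkg7 lies on the plus strand (chr7:43436888-43437137), Ncr1 on the plus strand (chr7:4337465-4337714; the first of its entries) and Xcl1 on the minus strand (chr1:164935523-164935772).
Nkg7: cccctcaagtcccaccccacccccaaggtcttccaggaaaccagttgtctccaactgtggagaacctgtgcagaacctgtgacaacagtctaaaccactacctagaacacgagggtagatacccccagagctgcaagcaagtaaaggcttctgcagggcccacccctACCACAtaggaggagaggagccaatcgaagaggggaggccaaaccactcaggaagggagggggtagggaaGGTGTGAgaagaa
Ncr1: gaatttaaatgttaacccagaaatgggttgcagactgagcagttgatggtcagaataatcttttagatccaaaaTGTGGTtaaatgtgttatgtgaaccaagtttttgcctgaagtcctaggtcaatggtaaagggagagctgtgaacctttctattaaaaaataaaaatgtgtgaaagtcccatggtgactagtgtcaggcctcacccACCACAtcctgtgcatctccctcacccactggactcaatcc
Xcl1: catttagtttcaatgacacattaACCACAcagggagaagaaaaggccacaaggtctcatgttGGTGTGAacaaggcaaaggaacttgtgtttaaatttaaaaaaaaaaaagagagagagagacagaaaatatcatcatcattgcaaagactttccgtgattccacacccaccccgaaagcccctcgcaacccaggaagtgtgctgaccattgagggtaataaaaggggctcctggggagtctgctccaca
The T-box core began 13 bases before the start of Nkg7, there as part of the longer AGGTGTGA, and 188 bases before the start of Xcl1. The core occurred in 3.33% of 32851 promoter windows of this length and AGGTGTGA, which contains it, in 1.12%. TGTGGT occurred at 83 bases before Nkg7, at 176 and 41 before Ncr1 and at 227 before Xcl1, and in 14.0% of all windows. The STAT motif TTCNNNGAA, found in 7.02% of windows, matched 220 bases before Nkg7 and 123 before Il12rb2. Eomes and Cd27 held none of the 4 motifs in this window. The motifs were picked after the promoter sequences had been seen, and these matches are a description of letters only.

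Total counts per library ran from 129025 to 8566243, and from 356782 to 2466421 in the circulating libraries. Levels are given as CPM, counts scaled to a library total of 1000000. A library in which a gene had no count allows up to 3 counts, a limit between 0.350 and 23.3 CPM in the 24 libraries and between 1.22 and 8.41 CPM in the circulating ones. These limits cover counting error only. Markers of the labelled cell type were present throughout: 12 B cell identity genes summed to between 13266 and 23262 CPM in circulating and between 14858 and 40284 CPM in lung libraries. Much of each sum was the single gene Cd74, which averaged 10128 CPM in WT circulating and 8728 CPM in SCAP cKO circulating libraries. Ms4a1, the CD20 gene, had between 387 and 899 CPM in circulating and between 580 and 1718 CPM in lung libraries. The sum is therefore not a measure of B cell content. Scap, the deleted gene, had a median of 163 CPM (120.6 to 446) in SCAP cKO circulating and 107 CPM (0 to 203) in WT circulating libraries. It was thus not lower in the circulating libraries labelled SCAP cKO. In lung CCR6-CD69- libraries the median was 110 CPM (0 to 139) in SCAP cKO and 156 CPM (115 to 170) in WT. In lung CCR6+CD69+ libraries it was 74.5 CPM (43.5 to 138) in SCAP cKO and 73.2 CPM (66.2 to 134) in WT. The labels do not say which exons were removed, so a whole-gene count does not check the deletion, and cKO stands below for the label.

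Eomes was high in nearly all circulating libraries and close to 0 in the lung. The 4 WT circulating libraries had 235, 642, 359.6 and 845 CPM, and the 4 cKO circulating libraries 13.7, 360.3, 535 and 902 CPM. The highest lung library had 19.7 CPM, and 7 of 16 lung libraries had no Eomes count. All circulating libraries but 1 thus lay above every lung library, the exception being cKO circulating replicate 1, with 25 counts. Bulk libraries cannot tell more cells of a type from more RNA per cell.

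Nkg7 separated circulating from lung libraries completely. WT circulating libraries had 429, 846, 281 and 793 CPM, and cKO circulating libraries 849.97, 1354, 464 and 601 CPM. Lung libraries lay between 0 and 10.2 CPM, with 7 of 16 at 0. Over the circulating libraries its highest level was 4.82-fold the lowest, against 47.0-fold for Ncr1, 65.8-fold for Eomes and 148-fold for Xcl1. On library sizes scaled by TMM, an alternative chosen after seeing the data, these spreads were 8.70-fold, 24.8-fold, 32.6-fold and 298-fold in the same order of genes. Cd27 and Il12rb2 were at 0 in 1 and 2 circulating libraries, so they have no such ratio.

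Ncr1, the NKp46 receptor gene, also lay higher in each circulating library than in any lung library. WT circulating libraries had 148, 605, 135 and 339.8 CPM, and cKO circulating libraries 14.8, 246, 695 and 28.2 CPM. The lung maximum was 6.34 CPM. The low cKO libraries, replicates 1 and 4, rest on 27 and 59 counts, and replicate 4 had high Eomes at the same time.

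The receptor chain gene Il12rb2 divided the circulating libraries by batch. WT circulating libraries had 1.77 and 11.2 CPM in batch 1 and 54.3 and 122 CPM in batch 2, and cKO circulating libraries 0 and 0 CPM in batch 1 and 99.6 and 393 CPM in batch 2. The lung maximum was 11.8 CPM, so the 4 batch 2 circulating libraries lay above the lung and the 4 of batch 1 within its range. Only 4 counts stood behind each WT value of batch 1.

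Cd27 followed a similar split at lower levels. WT circulating libraries had 11.0 and 28.0 CPM in batch 1 and 36.1 and 68.0 CPM in batch 2, and cKO circulating libraries 11.0 and 0 CPM in batch 1 and 187 and 119 CPM in batch 2. One lung library, cKO CCR6-CD69- replicate 3, reached 91.8 CPM (122 counts), and the other 15 stayed at or below 7.23 CPM. Only 2 of 8 circulating libraries therefore exceeded every lung library.

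Levels of the chemokine gene Xcl1 overlapped between circulating and lung libraries. WT circulating libraries had 190.04, 61.7, 29.6 and 73.1 CPM, and cKO circulating libraries 283, 95.03, 9.59 and 1.91 CPM. The lung group cKO CCR6-CD69- had 33.4, 12.2, 9.03 and 0 CPM, and the other lung libraries at most 4.27 CPM. Thus 5 of 8 circulating libraries lay above every lung library, and the 2 lowest were the batch 2 cKO libraries, with 13 and 4 counts.

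**Figure D1:**
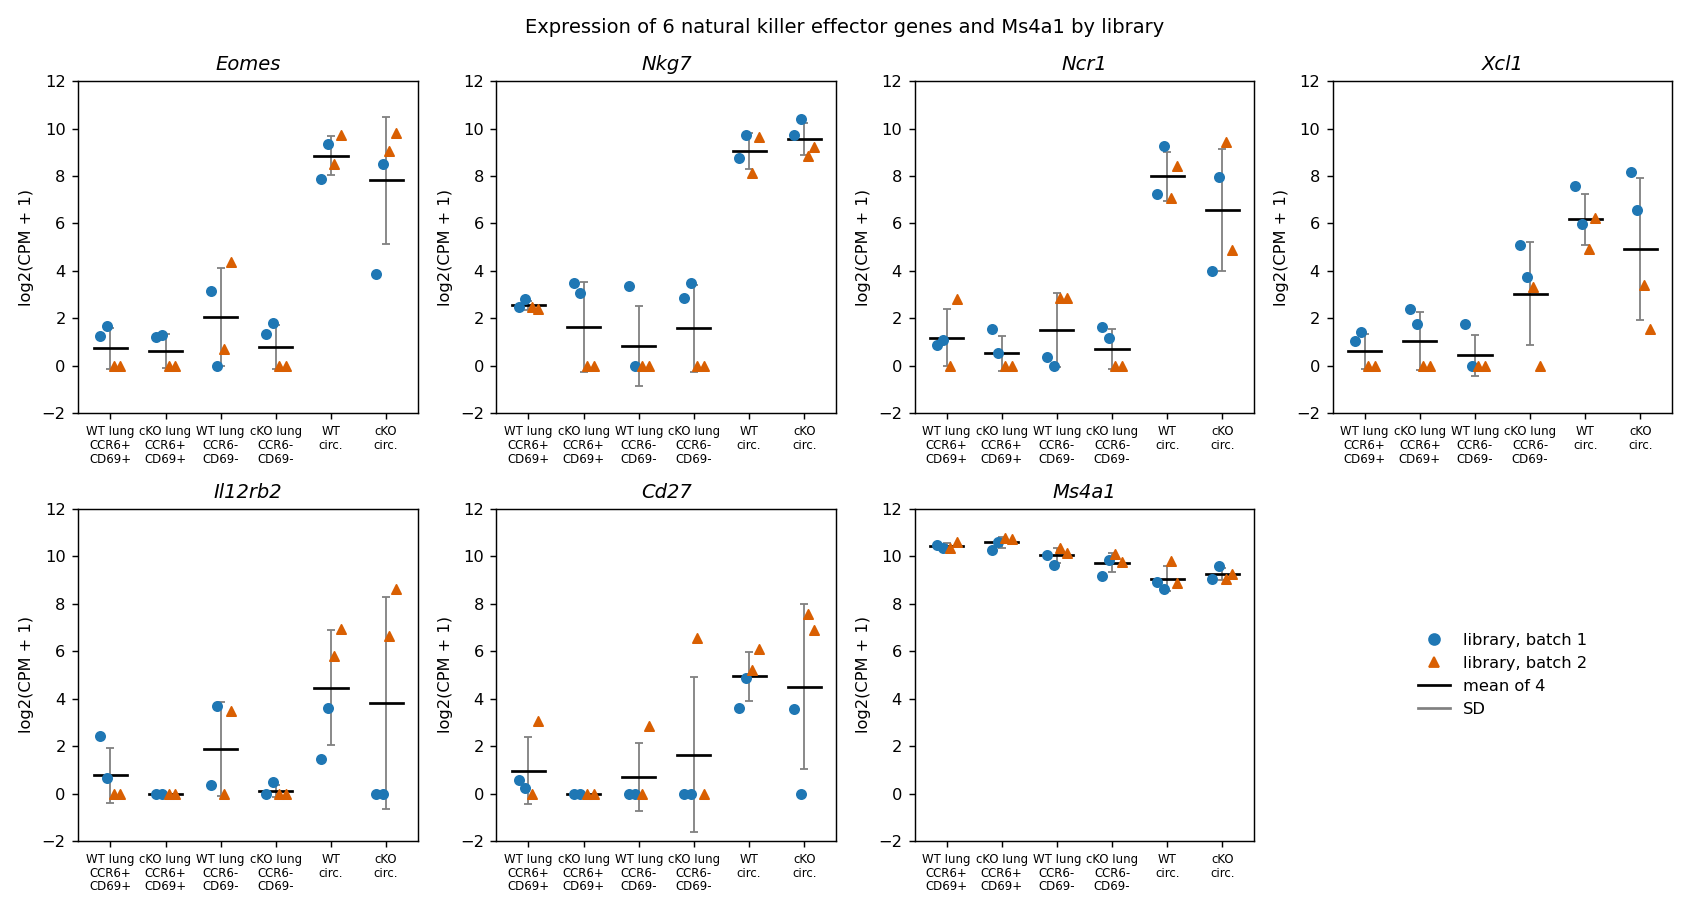
Expression of the 6 genes and of the B cell gene Ms4a1 as log2(CPM + 1) in each of 24 libraries, by group; circles are batch 1, triangles batch 2, black lines the mean of 4 and grey bars the SD. Nkg7 and Ncr1 in the 8 circulating libraries lie above all 16 lung libraries, while Il12rb2 and Cd27 in circulating libraries split by batch.

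For each member the circulating groups held the first and second place by mean. The order was WT above cKO for Eomes (520 ± 276 against 453 ± 370 CPM, SD, n = 4) and Ncr1 (307 ± 220 against 246 ± 318 CPM). It was cKO above WT for Nkg7 (817 ± 392 against 587 ± 276 CPM), Xcl1 (97.3 ± 131 against 88.6 ± 70.1 CPM), Il12rb2 (123 ± 186 against 47.2 ± 54.6 CPM) and Cd27 (79.1 ± 89.5 against 35.8 ± 23.9 CPM). These 2 groups overlapped for all 6 genes. The step from the lower circulating group to the highest lung group was free of overlap for Nkg7 and Ncr1 and not for the other 4 genes, and the lung groups overlapped among themselves. Ms4a1, which encodes CD20, ran the other way, from 1542 ± 227 CPM in cKO lung CCR6+CD69+ to 557 ± 232 CPM in WT circulating libraries, with neighbouring groups overlapping at each step. Every circulating library (at most 899 CPM of Ms4a1) nevertheless lay below every lung CCR6+CD69+ library (at least 1218 CPM), while lung CCR6-CD69- libraries overlapped with circulating ones. Of the 6779 genes tested, 0.103% had all 8 circulating libraries above all 16 lung libraries, and 2 of the 6 members did. As this includes the WT contrast that chose the members, nothing is read from that count.

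In the cKO libraries, all 6 genes were higher in circulating than in lung CCR6+CD69+ cells. This comparison repeats, in the other genotype, the one that brought the genes to attention. In edgeR's quasi-likelihood test, adjusted over 6779 genes by Benjamini and Hochberg's method with 0.05 as the threshold, Eomes rose by 9.37 ± 1.42 (log2 fold change ± SE, adjusted p = 1.40e-05). Nkg7 rose by 8.34 ± 1.10 (edgeR adjusted p = 1.09e-06) and Ncr1 by 8.34 ± 1.59 (edgeR adjusted p = 6.36e-04). Xcl1 rose by 6.04 ± 1.59 (edgeR adjusted p = 0.0252). Il12rb2 and Cd27 had no count in any of the 4 cKO lung CCR6+CD69+ libraries. Against 3 counts over that group they were at least 621-fold and at least 339-fold higher in circulating libraries, with edgeR adjusted p = 0.0187 and 0.0195. The Il12rb2 bound rests on cKO circulating replicate 4, which held 823 of 958 counts, and fell to at least 132-fold without it; replicates 1 and 2 had no count. Without cKO circulating replicate 3 the Cd27 bound was at least 223-fold. Leaving single libraries out of these pools was chosen after seeing the data. The background was 1.46% of genes called higher in circulating libraries (99 of 6779), and since the members passed the filter through the circulating groups their count of 6 is a description. Ms4a1 differed by -1.06 ± 0.42 (edgeR adjusted p = 0.266).

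The calls of Xcl1, Il12rb2 and Cd27 in that comparison ended when any one of the 4 lung CCR6+CD69+ libraries was left out, with edgeR adjusted p-values between 0.0673 and 0.132. Without cKO circulating replicate 1, Xcl1 (edgeR adjusted p = 0.191) and Cd27 (0.0599) were no longer called, and without replicate 4 Il12rb2 was not (0.0726). Without the batch term the Xcl1 call was also lost (edgeR adjusted p = 0.0892). Eomes, Nkg7 and Ncr1 kept their calls each time. With 1 batch at a time, Eomes and Nkg7 were called in both, with differences of 7.08 and 7.04 in batch 1 and 13.5 and 13.1 in batch 2, where the lung libraries had no count of either. Ncr1 was not called in either batch (edgeR adjusted p = 0.0522 and 0.0953).

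Against cKO lung CCR6-CD69- cells, 3 of the 6 genes were called higher in circulating cells. Eomes rose by 8.51 ± 1.42 (edgeR adjusted p = 6.05e-04), Nkg7 by 8.11 ± 1.14 (2.84e-05) and Ncr1 by 7.47 ± 1.57 (0.0150). Xcl1 differed by 1.99 ± 1.57 (edgeR adjusted p = 0.556) and Cd27 by 2.61 ± 1.72 (0.475). Lung libraries at 33.4, 12.2 and 9.03 CPM of Xcl1 and at 91.8 CPM of Cd27 lay among the circulating values. Il12rb2 had 958 counts in circulating and 1 in cKO lung CCR6-CD69- libraries, a pooled CPM ratio of 1303 with a 95% interval of 233 to 51510 for counting error, and did not pass (edgeR adjusted p = 0.152). Without cKO circulating replicate 4 that ratio was 276, with an interval of 48.8 to 10998. DESeq2 called Il12rb2 in this comparison (adjusted p = 0.0443). The background was 0.280% of genes called higher (19 of 6779), and the members' count is again a description. In all, 21 genes were called, against 12 with a block for the replicate number, and the same 3 members were called with the block. With RLE size factors 22 genes were called higher and 29 lower, against 19 and 2 with TMM, again with 3 members called. Without the libraries under 500000 counts (cKO lung CCR6-CD69- replicate 4 and WT circulating replicate 2) only Nkg7 was called, and Eomes and Ncr1 had edgeR adjusted p = 0.0503 and 0.0521. Without the batch term Nkg7 was not called (edgeR adjusted p = 0.0583), and with only the groups compared Ncr1 was not (0.109).

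Within the cKO libraries, each of the 4 circulating values lay above all 8 lung values for Eomes, Nkg7 and Ncr1. That was the case for 0.664% of genes tested (45 of 6779). Since the members passed the filter through the circulating groups, this is a description. The lowest Eomes value in cKO circulating cells, 13.7 CPM, compared with at most 2.53 CPM in cKO lung cells. For Xcl1, Il12rb2 and Cd27 the values overlapped. The 2 cKO lung comparisons share the cKO circulating libraries and are not independent of each other.

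**Figure D2:**
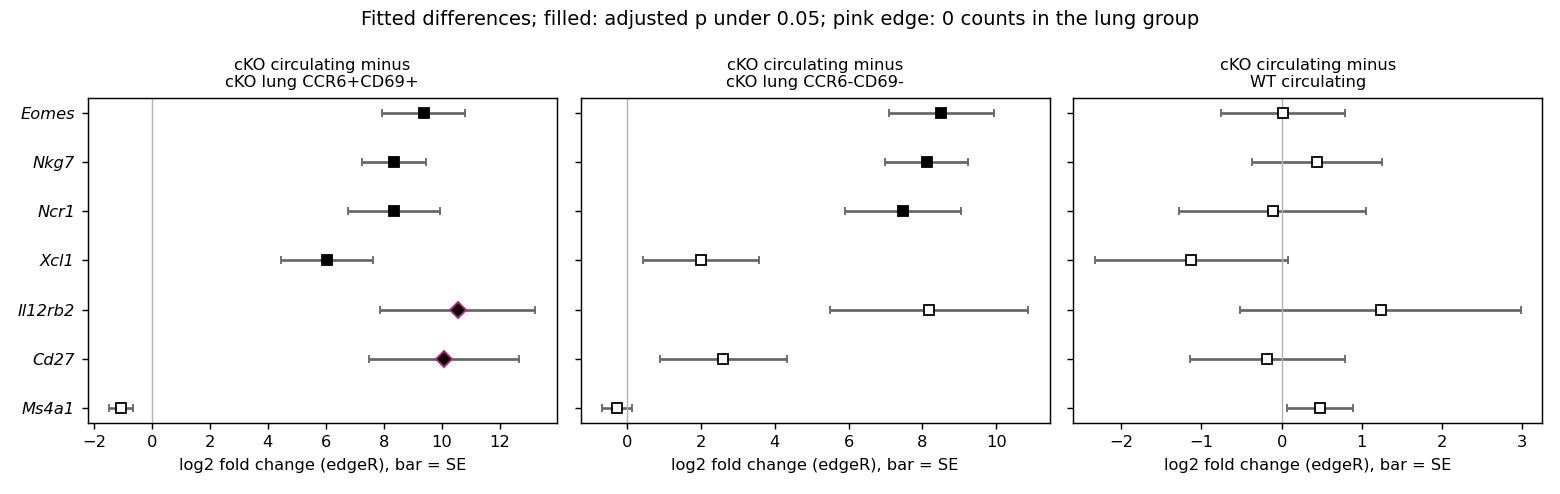
Fitted log2 fold changes with SE bars for the 6 genes and Ms4a1 in 3 comparisons; filled symbols passed the adjusted threshold, and a pink edge marks genes with no count in the lung group, whose fitted value depends on the prior count. All 6 genes are called against cKO lung CCR6+CD69+, 3 against cKO lung CCR6-CD69- and none between genotypes.

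Between the genotypes no member was called in circulating cells. The fitted cKO minus WT differences were 0.02 ± 0.77 for Eomes, 0.44 ± 0.81 for Nkg7, -0.11 ± 1.16 for Ncr1, -1.12 ± 1.21 for Xcl1, 1.23 ± 1.75 for Il12rb2 and -0.18 ± 0.97 for Cd27 (log2 ± SE). Adjusted p-values ran from 0.806 to 0.998 in edgeR. The genes' own libraries spread more widely than these differences, as in Eomes, which went from 13.7 to 902 CPM within the cKO group alone. Of all genes 0% were called by edgeR (0 of 6779, with 693 at an unadjusted p under 0.05), while DESeq2 called 226, with 0 members among them. Two-sided exact permutation tests of log2(CPM + 1) with 4 libraries against 4 gave p from 0.343 to 0.83 for the members, where 0.0286 is the smallest they can give. On that scale Eomes and Il12rb2 were lower in cKO by 1.04 and 0.63, against fitted values above 0, so the direction of these 2 genes depends on the scale. SEs of 0.77 to 1.75 leave differences of severalfold in either direction undetectable at this number of libraries.

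Batch, by contrast, ordered 2 of the members. Il12rb2 lay between 0 and 11.2 CPM in the 4 batch 1 circulating libraries and between 54.3 and 393 CPM in the 4 of batch 2. Cd27 lay between 0 and 28.0 CPM in batch 1 and between 36.1 and 187 CPM in batch 2. With library sizes scaled by TMM, which put batch 2 at factors from 1.17 to 1.20 and 3 of 4 batch 1 libraries from 0.596 to 0.735, both genes remained apart (at most 8.84 against at least 46.5 CPM, and at most 22.1 against at least 30.9 CPM). Such separation with batch 2 higher was seen in 4.38% of genes tested, and with batch 1 higher in 3.76%, so 2 of 6 members separated upwards and 0 of 6 downwards. Xcl1 tended the other way without separating: it ranged from 61.7 to 283 CPM in batch 1 and from 1.91 to 73.1 CPM in batch 2. Eomes, Nkg7 and Ncr1 overlapped between batches.

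The mixture of the members also varied. Summed over the 6 genes, circulating libraries had between 896 and 2241 CPM. The ratio of Nkg7 to Eomes counts lay between 1.32 and 3.76 in 3 of the 4 batch 1 libraries and between 0.667 and 0.938 in the 4 batch 2 libraries. It was 62.0 in cKO circulating replicate 1, which had 1551 Nkg7 counts and 25 Eomes counts. That library therefore held few transcripts of the T-box factor and of Ncr1 (27 counts) beside high Nkg7 and Xcl1 (516 counts).

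Across the 8 circulating libraries the correlations among the 6 genes had both signs. Over the 15 pairs of members, Pearson's r of log2(CPM + 1) had a median of -0.000846, and 7 of 15 pairs were above 0. A member with a non-member gene had a median r of -0.0146 over 5657 genes of at least 10 CPM. All 21 relations (15 between members and 6 with Ms4a1) were tested by exact permutation over all pairings, with Benjamini-Hochberg adjustment over the 21. The 8 libraries share 2 batches and 2 genotypes, and n = 4 within a batch is too few for a value of r there, so values centred within batch stand beside the pooled ones.

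Il12rb2 and Cd27 were the pair past the threshold. Their pooled r was 0.87 (exact permutation p = 0.00193, adjusted p = 0.0406), Spearman's rho was 0.92 (exact p = 0.00268), and without the 2 libraries farthest from the median of Il12rb2 r was 0.88. Both genes fall into separate sets by batch, however, and centred within batch r was 0.65 (exact permutation p = 0.16, permuting within batch). The adjusted rho of this pair and of all others missed the threshold. The relation can therefore not be told apart from the batch.

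Xcl1 ran against Il12rb2, with r = -0.84 (exact permutation p = 0.00640, adjusted p = 0.0672), rho = -0.81 and -0.59 within batch. Its values with Cd27 were r = -0.66 (adjusted exact p = 0.351), rho = -0.83 and -0.22 within batch. Eomes with Il12rb2 gave r = 0.69 (exact permutation p = 0.0165, adjusted p = 0.115), rho = 0.80 and 0.61 within batch. None of these 3 passed the adjusted threshold.

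Eomes and Ncr1, a pair that defines conventional NK cells, had r = 0.62 (adjusted exact permutation p = 0.351), rho = 0.38 and 0.67 within batch. That value rests on single libraries: it was -0.067 without cKO circulating replicate 1 and 0.94 without replicate 4. Eomes and Nkg7 had r = -0.13 and rho = 0.048, and r = 0.35 without the 2 farthest libraries. Nkg7 and Ncr1 had r = -0.000846 and rho = 0.

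No relation between Ms4a1 and a member passed the threshold. The pooled r lay between -0.28 (Cd27) and 0.0072 (Il12rb2), and the adjusted exact permutation p-values lay between 0.895 and 0.998. Centred within batch, Cd27 had r = -0.81 with Ms4a1 (exact permutation p = 0.0191, not under 0.21 after adjustment in any alternative) and Il12rb2 -0.64. These signs depend on the scaling: on TMM library sizes r ranged from -0.68 to 0.47 over the 6 genes. Ms4a1 itself ran from 387 to 899 CPM among circulating libraries, and from 305 to 1181 CPM on TMM sizes.

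**Figure D3:**
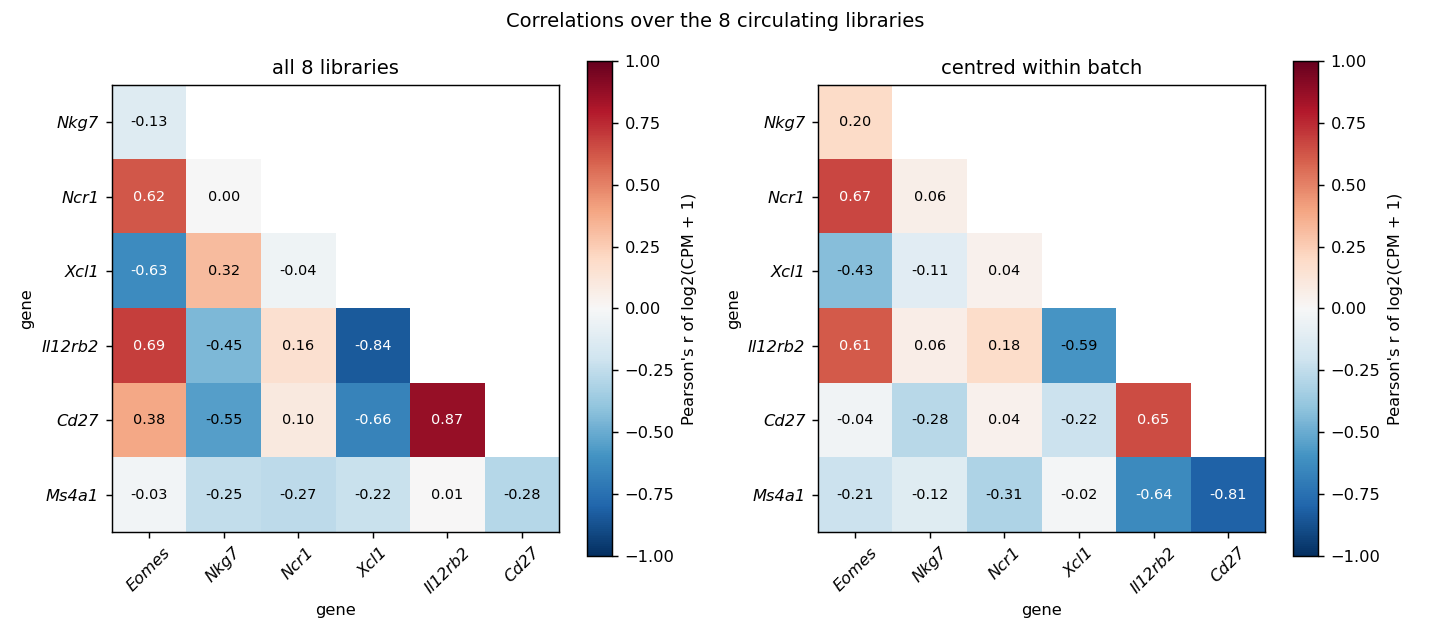
Pearson's r of log2(CPM + 1) for the 15 pairs of members and the 6 pairs with Ms4a1 over 8 circulating libraries, pooled on the left and with each batch's mean removed on the right; red is positive and blue negative. The pooled block of Xcl1, Il12rb2 and Cd27 (-0.84, -0.66 and 0.87) is weaker within batch (-0.59, -0.22 and 0.65).

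**Figure D4:**
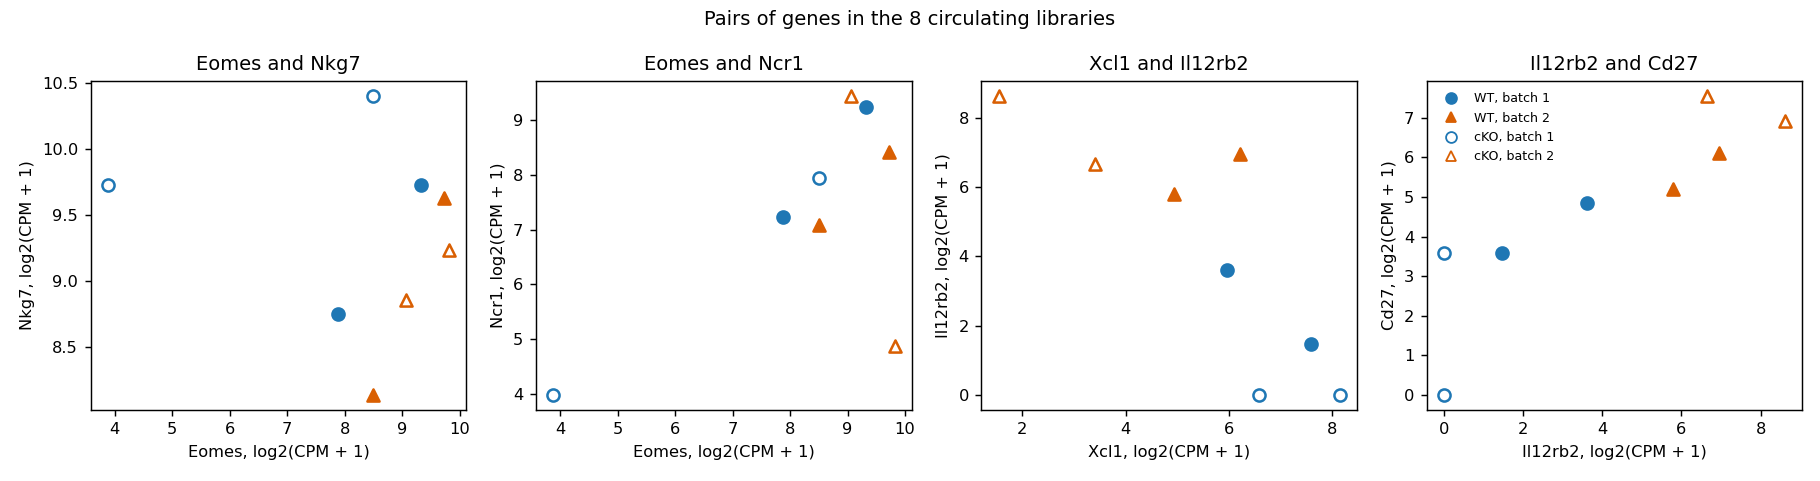
The 4 panels each plot a pair of genes, with 1 point for each circulating library on log2(CPM + 1) axes; filled symbols are WT, open symbols cKO, circles batch 1 and triangles batch 2. In the panel of Eomes and Ncr1 cKO replicate 1 stands alone at the lower left, and in the panel of Il12rb2 and Cd27 all triangles lie above all circles on both axes.

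The genes most like each member depended on whether the lung libraries were included. Over all 24 libraries, Pearson's r of log2(CPM + 1) among genes of at least 10 CPM in circulating libraries was highest for lectin-like NK receptor genes in 5 of the 6 members. Eomes was closest to Klra7 (r = 0.94), Klra1 (0.89) and Styk1 (0.89). Nkg7 was closest to Klra4 (0.96), Klre1 (0.89) and Samd3 (0.88), and Ncr1 to Klra7 (0.90), Klrb1c (0.86) and Klra1 (0.86). Xcl1 was closest to Klre1 (0.89), Cma1 (0.85) and Klra8 (0.85), and Il12rb2 to Klra9 (0.86), Tnfrsf9 (0.75) and Vegfa (0.74). For Cd27 they were Irf8 (0.79), Il18r1 (0.76) and Tnik (0.74). Much of each value is the step between lung and circulating libraries.

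Over the 8 circulating libraries alone that step is absent, and other genes came first. Eomes was closest to Add1 (0.96), Ccr2 (0.96) and Mta2 (0.95), and Nkg7 to Dnajb2 (0.90), Ccdc115 (0.87) and Ppm1b (0.87). Ncr1 was closest to Crebzf (0.95), the NK receptor gene Klra3 (0.93) and Kctd18 (0.91), and Xcl1 to Cox14 (0.97), Serf2 (0.95) and Dynll1 (0.95). Il12rb2 was closest to Tnfaip3 (0.99), Psmd3 (0.98) and Lfng (0.96), and Cd27 to Spata13 (0.97), Ccny (0.95) and Bhlhe40 (0.95). These are the highest of 5657 values over 8 libraries that share batches, and they are descriptions.

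Partners of the members were read from lists that leave the members out. Among NK effectors 4 of 12 listed genes had a row and were tested; Prf1, Gzmb and Ifng, the perforin, granzyme B and interferon-gamma genes, are not analysed here. Ccl4, a chemokine gene, rose in cKO circulating against lung CCR6+CD69+ cells by 6.45 ± 0.77 (edgeR adjusted p = 5.57e-08), at 748 ± 388 against 12.7 ± 11.1 CPM. It was the 1 of 4 called there, and 0 of 4 were called against lung CCR6-CD69-, where Ccl4 averaged 275 ± 174 CPM in cKO libraries. The list's median log2 fold change was 4.04 and 1.05 in these comparisons, against 0.01 and 0.26 over all genes.

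Of 9 NK transcription factors tested, 0 were called in any of the 3 comparisons, with medians of 0.30 and 0.45 against the lung populations. Tbx21, the T-box factor T-bet, which acts beside Eomes, averaged 154 ± 116 CPM in cKO circulating and 24.6 ± 27.5 CPM in cKO lung CCR6+CD69+ cells (SD, n = 4), with edgeR adjusted p = 0.383. Stat4, which carries the IL-12 signal, averaged 242 ± 321 CPM in cKO circulating, 80.1 ± 51.7 in cKO lung CCR6+CD69+ and 9.72 ± 7.50 in cKO lung CCR6-CD69- cells, with edgeR adjusted p = 0.531 and 0.0655.

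Among 7 tested receptors and kinases of IL-12, IL-15 and IL-18, Il18rap, a chain of the IL-18 receptor, was the 1 called. It rose by 6.06 ± 1.43 in cKO circulating against lung CCR6+CD69+ cells (edgeR adjusted p = 0.00993), at 186 ± 130 against 3.54 ± 5.31 CPM. Il12rb1, the other IL-12 receptor chain, is not analysed here. Of 9 tested activating receptors and adaptors, Tyrobp (4.74 ± 0.73, edgeR adjusted p = 1.40e-05), Fcer1g (4.38 ± 0.84, 7.58e-04) and Cd160 (9.21 ± 2.22, 0.0104) were called in that comparison and 0 against lung CCR6-CD69-. Tyrobp and Fcer1g encode signalling adaptors of NK receptors that myeloid cells also express. Cd247, the zeta chain, was at 85.8 ± 117 against 7.34 ± 13.7 CPM and was not called (edgeR adjusted p = 0.347).

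The ligand and receptor matching Cd27 and Xcl1 were scarce in circulating libraries. Cd70 had 1 count over the WT and 3 over the cKO circulating libraries, and Xcr1 had 0 and 1. In lung CCR6+CD69+ libraries Cd70 had 40 counts in WT and 203 in cKO, and Xcr1 had 33 and 0. As CPM, which allows for depth, Cd70 there averaged 2.01 ± 1.72 in WT and 16.6 ± 32.7 in cKO libraries (SD, n = 4). The cKO values ran from 0 to 65.7 CPM, so a single library carried most of that level. No difference between genotypes is read from it. The 3 genes of that list that were tested gave 0 calls.

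Markers of other cell types that the sorted populations could hold moved as well. Of 10 tested killer cell lectin-like receptors, 7 were called higher against cKO lung CCR6+CD69+ and 5 against lung CCR6-CD69-. Over all genes, 1.46% and 0.280% were called higher in these comparisons, which is the background for every list here. The 11 receptor genes with a row summed to between 665 and 1620 CPM in circulating and between 0 and 40.6 CPM in lung libraries. With levels this low in the lung, these genes passed the filter mainly through the circulating groups, as the members did. Their counts of calls, and those of the other lists, are therefore descriptions. Among these receptors Klra1 differed by 10.1 ± 1.99 (edgeR adjusted p = 9.87e-04) and Klra4 by 8.03 ± 1.56 (8.17e-04) in the first of the comparisons. Klri1 was at 0 in all libraries. The list's median log2 fold change was 8.83 and 7.48 in the 2 comparisons. Klra genes are close paralogs, so reads may be divided among them uncertainly. These receptors were listed as markers of NK cells, and their part in the members' levels was not tested.

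Of 11 tested T cell markers, Cd4 was the 1 called (5.78 ± 1.12 against cKO lung CCR6+CD69+, edgeR adjusted p = 0.00110). The 12 genes with a row summed to between 540.5 and 2844 CPM in circulating and between 69.8 and 998 CPM in lung libraries, with Themis at 0 in all circulating libraries. Of 6 plasmacytoid dendritic cell markers, 5 were called in that comparison, led by Irf8, Lifr, Pltp and Cox6a2, and 0 against lung CCR6-CD69-, with sums of 4821 to 7656 CPM in circulating and 1377 to 5618 CPM in lung libraries. Irf8, also a B cell gene, rose by 2.36 ± 0.38 (edgeR adjusted p = 2.79e-05). Of 10 tested macrophage and monocyte markers only Ccr2 was called (4.65 ± 1.05, edgeR adjusted p = 0.00489), and the sum of the 11 with a row ran from 793 to 4796 CPM in circulating and from 53.3 to 48397 CPM in lung libraries, with Marco at 0 in all circulating libraries. The 2 plasma cell markers, Jchain (2.68 ± 0.59, edgeR adjusted p = 0.00578) and Sdc1 (8.18 ± 2.09, 0.0195), were both called higher against lung CCR6+CD69+. In the B cell list Cd74 was called lower (-1.06 ± 0.27, edgeR adjusted p = 0.0195) and Spib higher (2.26 ± 0.49, 0.00313) out of 12. Of 5 tested conventional dendritic cell markers Clec10a was called higher (8.08 ± 1.57, edgeR adjusted p = 8.17e-04), and 0 of 5 granulocyte, 0 of 3 epithelial, endothelial and stromal and 0 of 1 erythroid and platelet markers were. Against lung CCR6-CD69-, 0 genes of these lists from T cells onwards were called, and between genotypes 0 genes of any list. The part of these cell types in the members' levels was not tested.

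**Figure D5:**
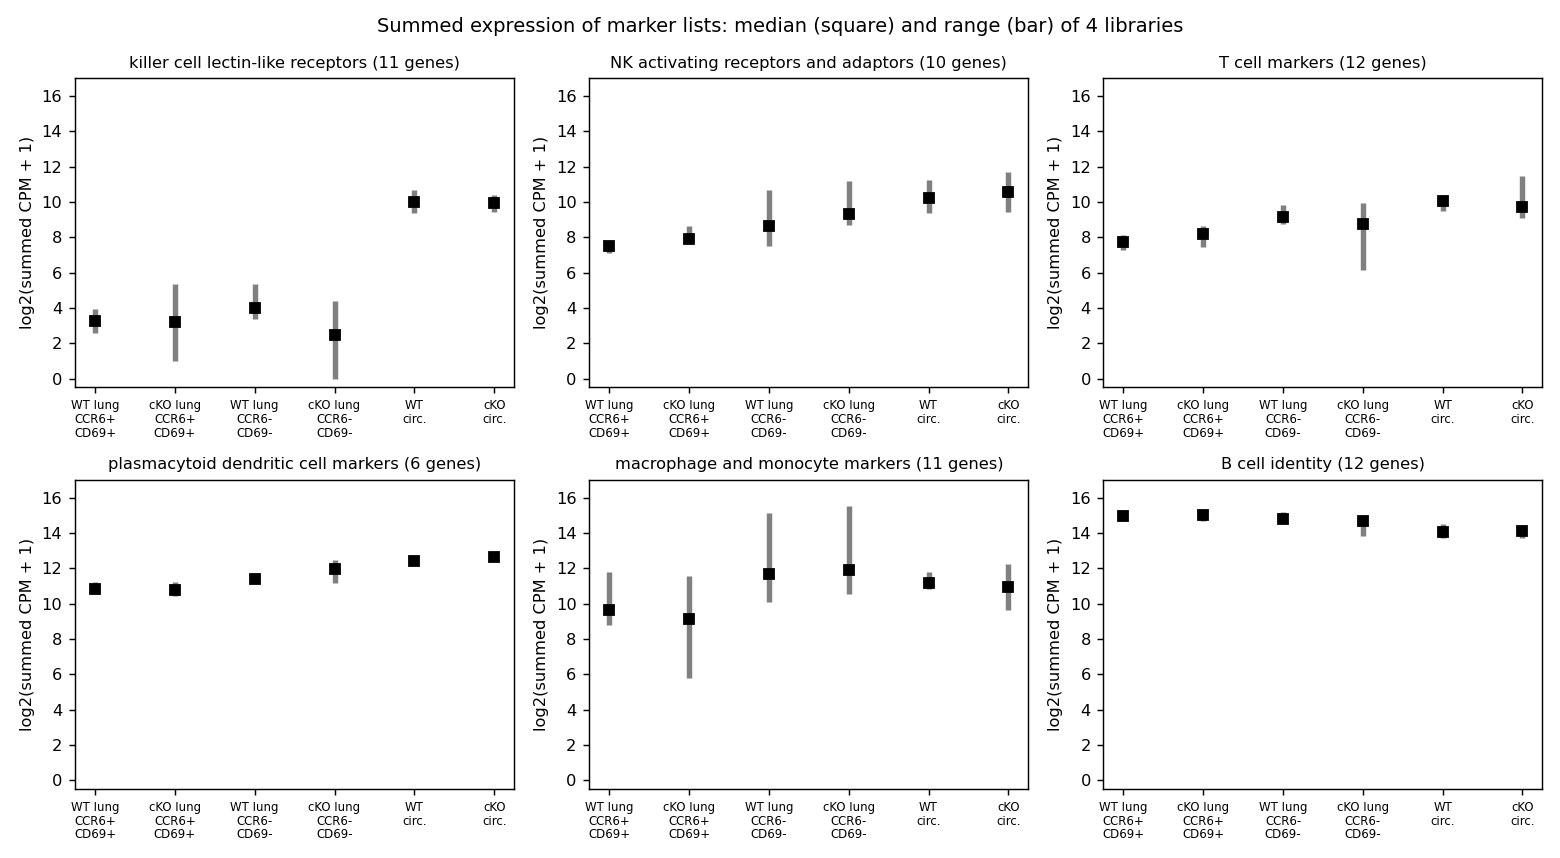
Summed CPM of 6 marker lists in each group as log2(summed CPM + 1); squares are the median and bars the range of 4 libraries. The killer cell lectin-like receptors sum to at least 665 CPM in circulating and at most 40.6 CPM in lung libraries. B cell identity sums are at most 23262 CPM in circulating libraries. They overlap there only with cKO lung CCR6-CD69- (14858 to 30835 CPM) and lie below every library of the other lung groups.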

How the data were processed

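PolyA RNA of 24 libraries was measured by RNA-seq; the table deposited by the authors holds raw counts by gene symbol. FastQC, STAR, Salmon and the build mm39 appear in the submitters' processing notes; versions and roles are not given in the sources used here. Counts were fitted in R 4.3.3 with edgeR 4.0.16: TMM scaling, filterByExpr by group (6779 of 18470 rows), a robust quasi-likelihood F-test with terms for group and batch over all libraries, and Benjamini-Hochberg adjustment with a threshold of 0.05. The fit was also run on simulated data, and as the outcome is not given here, nothing is read from that run. CPM uses total counts over the rows analysed (129025 to 8566243 per library); log2 values add 1. Correlations and their exact permutations were computed in Python 3.11.15, with ranks and intervals for counting error from SciPy 1.17.1. Alternatives included RLE, DESeq2 1.42.0, other filters, single batches and leaving out libraries. Same-numbered cKO circulating and lung CCR6+CD69+ libraries deviated together (r 0.115 to 0.135), but hardly within a batch (0.0137 and 0.0511); numbers share a batch per the labels. Members, lists and tests were chosen with earlier results of these data known. Named genes were the members, list genes past the threshold in a cKO or genotype contrast (at most 4 a list, smallest p first), fixed partners, and the 3 genes most like each member. The result of 1 list is not reported here.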

Additional observations from a re-analysis of the deposited data

Results flagged for a closer look

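In groups of 4 libraries, the gap of an extreme value to the next was taken as a share of the group's range. A value was singled out where this share exceeded Dixon's 95% critical value. Of 33 gene-by-group sets screened, 6 stood out, each the highest of 4 in a lung group. The chance rate of about 1 in 20 that goes with this limit holds for normally distributed values, not for counts near 0. Where the other 3 libraries had no count, the share is 1 whatever the level. The number that stood out is therefore a description. In WT lung CCR6-CD69- replicate 1, Nkg7 had 9.18 CPM (31 counts) and Xcl1 2.37 CPM (8 counts), with 0 in the other 3 libraries. In WT lung CCR6+CD69+, Il12rb2 had 4.44 CPM (38 counts) in replicate 1 and Cd27 7.23 CPM (20 counts) in replicate 4. Cd27 had 6.28 CPM (15 counts) in WT lung CCR6-CD69- replicate 4 and 91.8 CPM (122 counts) in cKO lung CCR6-CD69- replicate 3, where the other 3 libraries of each group had no count.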

How the results depend on the processing

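Against cKO lung CCR6+CD69+, the members' fitted differences stayed above 0 in all 116 alternative values and passed the threshold in 93; Eomes and Nkg7 passed in 20 of 20 each. Against cKO lung CCR6-CD69-, 118 of 119 were above 0 and 53 passed. Between genotypes 62 of 120 were above 0 and 0 passed, so no direction is given. In batch 1 Il12rb2 had no count in cKO circulating or lung CCR6+CD69+ libraries and gave no value there. Causes were not tested.

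Members called against lung CCR6+CD69+ (6) numbered 3 with only the groups compared, where 3 were tested, 5 without a batch term (Xcl1 lost) and 2 in each batch alone; leaving out single libraries gave 3 to 6. Against lung CCR6-CD69- (3) it was 1 without libraries under 500000 counts and in each batch alone, 2 without a batch term (Nkg7 lost), 2 with only the groups compared (Ncr1 lost) and 4 with DESeq2 (Il12rb2 gained). All genes called against lung CCR6+CD69+ (104) became 488 with DESeq2, 213 without shallow libraries, 69 with only the groups compared, 52 and 15 in batches 1 and 2, and 64 to 117 leaving out single libraries. Against lung CCR6-CD69- (21) they became 51 with RLE, 520 with DESeq2, 101 without a filter, 9 without a batch term, 4 with only the groups compared, 10 without shallow libraries, 1 and 11 in batches 1 and 2, and 13 to 31 leaving out single libraries. With the replicate block they were 12, and the block changed no member's call. Between genotypes (0) DESeq2 called 226, batch 1 alone 2, and leaving out single libraries 0 to 1. The median log2 fold change of all genes moved from 0.26 to 0.072 with RLE against lung CCR6-CD69- and from 0.16 to 0.057 between genotypes.

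Signs turned as follows between genotypes. Eomes was -0.027 with RLE, -0.031 without a filter, -0.055 without a batch term, -0.24 with only the groups compared, -0.89 in batch 1, and -0.55 to 0.63 leaving out single libraries. Cd27 was 1.12 without a batch term, 0.20 with only the groups compared, 0.32 without shallow libraries, 0.0085 without libraries led by Chil3, 1.53 in batch 2, and -1.19 to 0.39 leaving out single libraries. Ncr1 was 0.074 with the replicate block, 0.28 without shallow libraries, 0.59 in batch 2, and -1.13 to 0.35 leaving out single libraries. Xcl1 was 0.67 without a batch term and 0.76 in batch 1. Il12rb2 was -0.85 with only the groups compared, -7.00 in batch 1, and -0.64 to 2.21 leaving out single libraries. Nkg7 was -0.033 in batch 2. Against lung CCR6-CD69-, Il12rb2 was -2.53 in batch 1.

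Of the correlations, 1 pair passed; 2 passed with TMM sizes and 0 with unlogged CPM, log2(CPM + 10), centring within batch or genotype, without shallow libraries, or without the 2 farthest libraries. Leaving out single libraries gave 0 to 1. Signs turned as follows. With unlogged CPM, Nkg7 with Ncr1 was 0.024 and Ncr1 with Il12rb2 -0.22. With TMM sizes, Ncr1 was 0.059 with Xcl1, -0.053 with Il12rb2 and -0.17 with Cd27, and Ms4a1 was 0.47 with Nkg7, 0.46 with Xcl1 and -0.61 with Il12rb2. With log2(CPM + 10), Nkg7 with Ncr1 was 0.018. Centred within batch, Nkg7 was 0.20 with Eomes, 0.057 with Ncr1, -0.11 with Xcl1 and 0.063 with Il12rb2; Eomes with Cd27 was -0.036, Ncr1 with Xcl1 0.044 and Il12rb2 with Ms4a1 -0.64. Centred within genotype, Nkg7 with Ncr1 was 0.17 and Eomes with Ms4a1 0.049. Without shallow libraries, Ms4a1 was 0.10 with Eomes and -0.033 with Il12rb2. Without the 2 farthest libraries, Eomes with Nkg7 was 0.35 and Cd27 with Ms4a1 0.22. Leaving out single libraries, Eomes ranged from -0.19 to 0.29 with Nkg7 and from -0.067 to 0.94 with Ncr1. Ncr1 ranged from -0.11 to 0.23 with Nkg7, -0.70 to 0.44 with Xcl1, -0.28 to 0.59 with Il12rb2 and -0.15 to 0.35 with Cd27. Ms4a1 ranged from -0.32 to 0.10 with Eomes, -0.75 to 0.38 with Nkg7, -0.18 to 0.30 with Il12rb2 and -0.47 to 0.14 with Cd27. Libraries of 129025 and 356782 counts limit a gene at 0 to 23.3 and 8.41 CPM.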

Other observations

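In 7 of the 8 batch 1 lung libraries the Nkg7 count was nearly constant, from 24 to 39, although their totals ran from 2374395 to 8566243 counts. The exception, WT lung CCR6-CD69- replicate 2, had no Nkg7 count in 680077. In batch 2 lung libraries Nkg7 had 16 and 12 counts in the WT CCR6+CD69+ libraries and 0 in the other 6. In the 4 batch 2 cKO lung libraries Eomes, Nkg7 and Ncr1 each had no count. These low lung counts were not examined further.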
